A study of Mus musculus with 6 samples.

Results

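The 10 transcription factor genes that set or modify B lineage identity, Pax5, Ebf1, Tcf3, Ikzf1, Ikzf3, Bach2, Bcl6, Id2, Id3 and Irf4, were followed through a mouse leukaemia experiment. They were chosen by symbol: each of the 10 genes had exactly 1 probe set on the array that carried its symbol alone, out of 19938 genes named, and all 10 were bright enough to be among the 14953 genes tested. RNA came from pre-B cells of C57BL/6 background that had been transformed with BCR-ABL1, the fused tyrosine kinase that drives Ph+ ALL, a leukaemia of B cell precursors. Every sample, the controls included, was Inpp5d fl/fl, which means that both alleles of Inpp5d, the gene of the lipid phosphatase SHIP1, carried loxP sites. Cells on 3 arrays had received PMIP-CRE-ERT2, which encodes a Cre recombinase switched on by tamoxifen. Cells on the other 3 arrays had received PMIP-ERT2, the tamoxifen-binding domain without Cre, and are called ERT2 controls. Both groups were exposed to 0.5 µM 4-hydroxytamoxifen for 2 days, and RNA was taken from cells resistant to puromycin. No group had Cre without floxed alleles and none went without tamoxifen, so an effect of Cre activity and an effect of Inpp5d deletion cannot be told apart. Nothing in the labels ties the 3 arrays of a group to separate cultures, and p-values therefore cover no more than the scatter of these 6 samples, possibly technical.

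B cell identity is built in layers. E2A, the product of Tcf3 and a basic helix-loop-helix E protein, and EBF1 open the early B cell programme, and PAX5 then holds the cells to it by activating B cell genes and repressing genes of other lineages. ID2 and ID3 are helix-loop-helix proteins without a DNA-binding region that pair with E proteins and keep them off DNA. Ikaros (Ikzf1) and Aiolos (Ikzf3) are zinc finger factors that slow the cycling of large pre-B cells and favour light-chain rearrangement, in which IRF4 also takes part. BACH2 and BCL6 are repressors. BCL6 is known to be held down by STAT5, which BCR-ABL1 activates, and BACH2 restrains the plasma cell programme.

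Start-site windows show which motifs lie next to these genes. RefSeq windows of 300 bases (build GRCm38.p6, from 250 bases before the start to 50 after it) were at hand for 9 of the 10 genes, in 12 windows, and not for Ikzf3. The windows of Id2 and Bach2 are shown because both genes rose, and a Bcl6 window because it held more STAT-type matches than any other window of these genes. Capitals mark CANNTG, the E-box read by E proteins, in Id2, and TTCNNNGAA, the paired half-site read by STAT factors, in Bach2 and Bcl6. The windows lie at chr12:25096043-25096342 on the minus strand (Id2), chr4:32417185-32417484 on the plus strand (Bach2) and chr16:23981234-23981533 on the minus strand (Bcl6).
Id2: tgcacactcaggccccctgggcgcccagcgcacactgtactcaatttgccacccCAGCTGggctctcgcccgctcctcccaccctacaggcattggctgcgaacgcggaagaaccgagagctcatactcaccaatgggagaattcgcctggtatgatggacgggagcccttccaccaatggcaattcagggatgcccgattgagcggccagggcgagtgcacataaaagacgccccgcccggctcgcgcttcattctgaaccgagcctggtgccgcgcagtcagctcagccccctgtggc
Bach2: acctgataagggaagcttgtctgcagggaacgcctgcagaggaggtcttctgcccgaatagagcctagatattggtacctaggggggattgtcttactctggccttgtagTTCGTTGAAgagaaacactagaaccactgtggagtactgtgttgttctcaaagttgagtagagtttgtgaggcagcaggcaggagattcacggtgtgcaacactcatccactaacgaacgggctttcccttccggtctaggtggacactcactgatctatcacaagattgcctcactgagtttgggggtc
Bcl6: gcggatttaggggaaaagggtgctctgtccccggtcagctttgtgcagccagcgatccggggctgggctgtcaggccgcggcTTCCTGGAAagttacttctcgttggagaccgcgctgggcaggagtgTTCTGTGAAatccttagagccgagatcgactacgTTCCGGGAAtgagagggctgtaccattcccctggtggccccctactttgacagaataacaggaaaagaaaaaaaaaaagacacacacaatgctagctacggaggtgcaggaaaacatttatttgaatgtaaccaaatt
Both motifs read the same on either strand. An E-box was found in 6 of the 12 windows, one window each of Bcl6, Ebf1, Id2, Irf4, Pax5 and Tcf3, against 72.3% of all 32851 windows in the table. TTCNNNGAA was found in 4 of the 12 windows, in Bach2, Ikzf1 and both windows of Bcl6, against 8.30% of all windows. The Bcl6 window shown held 3 matches, and 0.0335% of all windows held 3 or more. TGGGAA (the Ikaros core) was found in 1 of the 12 windows, one of Ebf1, against 25.6% of all windows with both strands searched. The palindromic EBF1 motif, TGTTTAC (FOXO factors) and TGANTCA (the core shared by AP-1 and BACH factors, both strands searched) were found in 0 of the 12 windows, against 0.904%, 3.65% and 7.81% of all windows. These are matches of letters in fixed windows and no binding was measured.

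The values are log2 array signals without counts behind them, and with 3 arrays on each side that number limits the precision. The array labelled Cre-ERT2 3 had a Pearson correlation across probe sets of 0.9967 to ERT2 control 3 and 0.9963 to ERT2 control 1. Its values were 0.9942 to ERT2 control 2 and 0.9938 and 0.9950 to arrays 1 and 2 labelled Cre-ERT2. Array 3 was the only array with its best match in the other group, and its mean correlation was 0.9957 to the controls and 0.9944 to its own group. Arrays 1 and 2 of that label had array 3 as their best match. Their means were 0.9931 and 0.9937 to their own group and 0.9910 and 0.9920 to the controls. They correlated at 0.9923 with each other and at 0.9927 and 0.9941 with ERT2 control 3. These correlations thus did not sort all arrays by label. The targeted gene did not check the labels either: Inpp5d signal was 13.20, 13.21 and 13.17 in ERT2 controls 1 to 3 and 13.37, 13.34 and 13.34 in arrays 1 to 3 labelled Cre-ERT2, a log2 fold change of 0.16 ± 0.041 (SE) that did not pass (limma adjusted p = 0.0545). The groups did not overlap, and Inpp5d was called higher under 5 of 17 alternatives, among them loess (0.17, adjusted p = 0.0367) and quantile normalization (0.16, adjusted p = 0.0485). The sources used here do not say whether its probe set covers the deleted part, and a probe set outside it checks nothing. Groups are therefore named by their labels. Differences also moved with signal strength: among 10 equal groups of genes by mean signal, the median log2 fold change was 0.11, 0.12 and 0.12 in the 3 dimmest and -0.061 in group 7, where 10 is the brightest. Scaling arrays to a common median moved the median of all genes from 0.026 to -0.077 and the share of higher calls from 45.9% to 7.38%.

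Of the 10 factors 3 rose where the label was Cre-ERT2: Id2 by 1.33-fold, Bach2 by 1.20-fold and Ikzf3 by 1.14-fold. Of the 10, 3 were higher, 0 lower and 7 did not pass an adjusted p of 0.05. At an unadjusted p under 0.05 the limma counts were the same, 3 higher and 0 lower. Among all genes tested, 7.62% were called, 3.50% as higher and 4.13% as lower. The share of all genes at an unadjusted p under 0.05 was not counted, and it is larger than 7.62%. Unadjusted counts, here and below, therefore cannot show an excess over all genes. After cyclic loess, which removes differences that follow signal strength, the same 3 factors were higher and 0 lower (5 at an unadjusted p under 0.05 by limma, 0 of them lower), against 7.83% of all genes called, 3.14% as higher and 4.69% as lower. The median log2 fold change of the 10 genes was 0.099, against 0.026 over all genes. In 6 of the 10 the 3 values labelled Cre-ERT2 lay wholly above the 3 controls, and in 0 wholly below, where 38.5% of all genes did not overlap, 20.7% upward and 17.7% downward. Without the array labelled Cre-ERT2 3, the same 3 genes were higher and 1, Id3, was lower, while 20.3% of all genes were called, 11.3% as higher and 9.0% as lower.

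**Figure D1:**
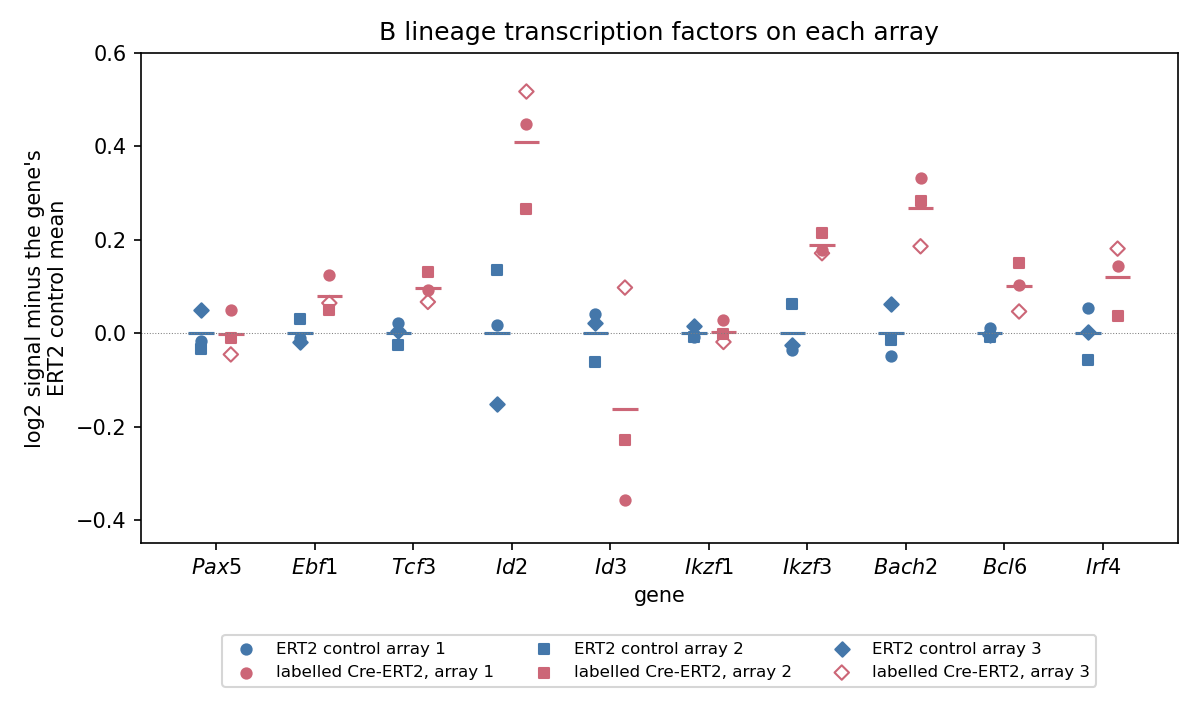
Log2 signal of each factor on each of the 6 arrays, as the difference from that gene's ERT2 control mean. Blue marks are ERT2 controls, red marks are arrays labelled Cre-ERT2, marker shape gives the array number, the open red diamond is the array labelled Cre-ERT2 3, and short lines are group means. Id2, Bach2 and Ikzf3 separate upward, while the open diamond of Id3 lies above the other red marks by more than 0.3.

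The core factors of commitment differed little. Pax5 signal was 13.00, 12.98 and 13.07 in ERT2 controls 1 to 3 and 13.06, 13.01 and 12.97 in arrays 1 to 3 labelled Cre-ERT2. The groups overlapped over nearly their whole range, with a log2 fold change of -0.0021 ± 0.048 (SE) and a 95% interval of -0.11 to 0.11 (adjusted p = 0.979). In fold terms that interval runs from 0.925 to 1.08. The sign of the Pax5 difference turned with quantile normalization and loess. Ebf1 signal was 13.67, 13.71 and 13.66 in the controls, against 13.80, 13.73 and 13.74 in those labelled Cre-ERT2. All 3 of the latter were above all controls by a narrow margin, and the log2 fold change of 0.080 ± 0.045 did not pass (adjusted p = 0.233). Tcf3, which encodes E12 and E47 by splicing, had signals of 12.52, 12.48 and 12.51 in the controls, against 12.60, 12.63 and 12.57 in those labelled Cre-ERT2. Its groups did not overlap either, and its log2 fold change of 0.097 ± 0.043 did not pass (adjusted p = 0.157). After centring on array medians the differences of Ebf1 and Tcf3 were -0.023 and -0.0053. One probe set per gene cannot show a change between E12 and E47.

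Their relatives and partners did not pass in the main fit either. The other E protein genes, Tcf12 and Tcf4, had log2 differences of 0.14 ± 0.046 (adjusted p = 0.0838) and 0.032 ± 0.041 (adjusted p = 0.597), and the value of Tcf4 was -0.071 after centring. With trend and robust estimation or with array weights Tcf12 was called higher (limma adjusted p = 0.0165 and 0.0292). Of 4 tested relatives of EBF1 and PAX5 (Ebf3, Ebf4, Pax2 and Pax8), 0 passed in either direction, with 1 higher at an unadjusted p under 0.05 by limma. Tcf12, Ebf3 and Pax2 lay wholly above the controls, as did 20.7% of all genes. Without the array labelled Cre-ERT2 3, 1 of these 4 was called, Pax8 (0.17, adjusted p = 0.0455), in a fit that called 20.3% of all genes. After loess with all arrays the Pax8 difference was 0.019 (limma adjusted p = 0.804).

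Among the inhibitors of E proteins Id2 rose and Id3 did not pass. Id2 signal was 9.74, 9.85 and 9.57 in ERT2 controls 1 to 3 and 10.17, 9.98 and 10.24 in arrays 1 to 3 labelled Cre-ERT2. Each array labelled Cre-ERT2 was above each control, and array 3 of that label was the highest. Id2 had the largest difference of the 10 genes, a log2 fold change of 0.41 ± 0.088 (SE) with a 95% interval of 0.21 to 0.61 (adjusted p = 0.0347). Against genes of like signal the rise of Id2 was larger, 0.46 above the median of its brightness group, which was -0.054. Id3 signal was 10.82, 10.72 and 10.80 in the controls, against 10.42, 10.55 and 10.88 in those labelled Cre-ERT2. Arrays 1 and 2 of that label were below all controls and array 3 was above all of them, so the groups overlapped. The log2 fold change of Id3 was -0.16 ± 0.10 and did not pass (adjusted p = 0.289). Without array 3 of that label Id3 fell by 0.29 on the log2 scale (adjusted p = 0.0249), so its call rests on whether that array is counted.

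These were also the factors that varied most within a group. The within-group SD was 0.14 for Id2 and 0.17 for Id3, larger than that of 91.7% and 97.0% of all genes tested. For the other 8 factors the SD lay below the median of all genes, down to 0.019 for Ikzf1. Against genes of like signal, however, the SD of Bach2, Irf4, Pax5 and Ikzf3 lay at percentiles 86.0, 76.2, 59.3 and 51.0, above the median. The per-array log2 signal of Id2 minus that of Id3, which cancels a shift common to an array, was -1.08, -0.86 and -1.23 in the controls, against -0.26, -0.57 and -0.64 in those labelled Cre-ERT2. This difference was higher on each of the 3 arrays labelled Cre-ERT2 than on any control, by 0.57 between group means. The means were -1.06 ± 0.19 and -0.49 ± 0.20 (SD, n = 3; exact permutation test, two-sided, p = 0.1, the smallest that 3 against 3 allows). The shift was 0.65 without array 3 of that label. It compares changes and not levels, and the pair was chosen with earlier results of these data known. The remaining family members Id1 and Id4 had log2 differences of 0.024 and -0.0016 and did not pass (adjusted p = 0.801 and 0.991), and that of Id1 was -0.078 after centring, -0.047 after loess and -0.061 after quantile normalization. Of the 7 E protein and Id genes together, 1 was higher, 0 lower and 6 did not pass, and at an unadjusted p under 0.05 by limma 2 were higher and 0 lower.

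**Figure D2:**
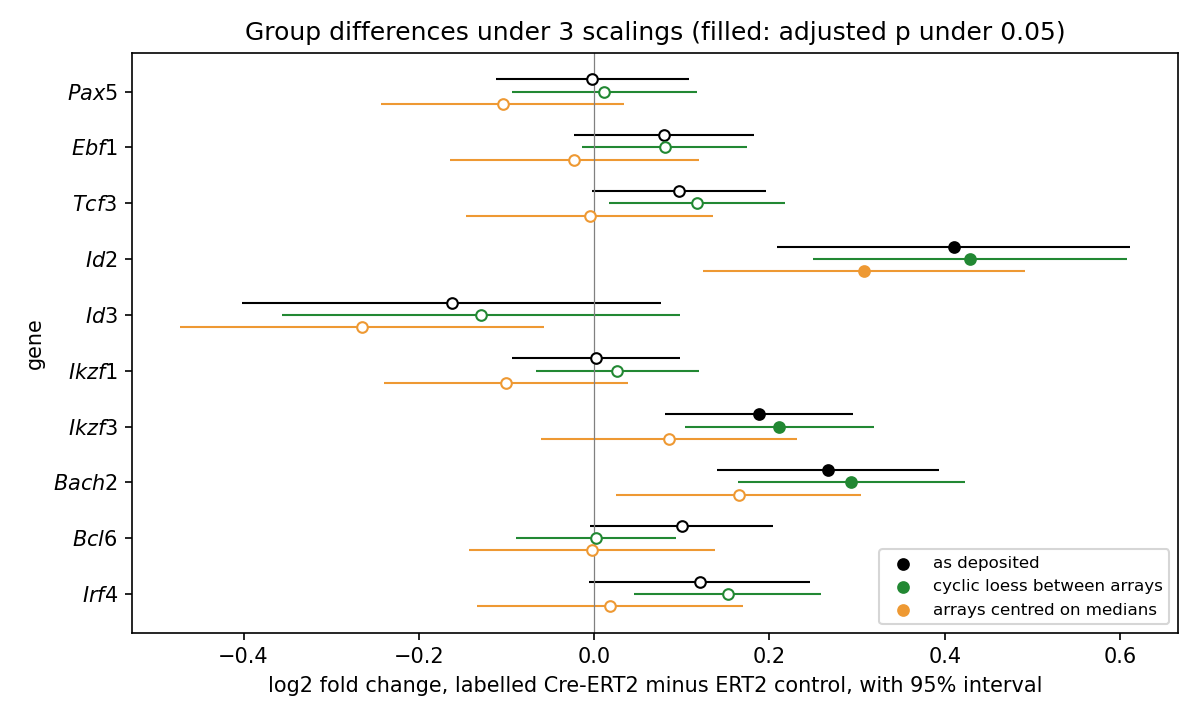
Log2 fold change of each factor, arrays labelled Cre-ERT2 minus ERT2 controls, with 95% intervals from limma, for values as deposited, after cyclic loess and after centring each array on its median. Filled points have an adjusted p under 0.05. Id2 is filled under all 3 scalings, Bach2 and Ikzf3 as deposited and after loess only, and the other 7 under none.

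In the Ikaros family Ikzf3 rose and Ikzf1 stayed within its spread. Ikzf3 signal was 12.21, 12.31 and 12.22 in ERT2 controls 1 to 3 and 12.42, 12.46 and 12.42 in arrays 1 to 3 labelled Cre-ERT2. The 3 arrays labelled Cre-ERT2 lay close together and above all controls, and the log2 fold change was 0.19 ± 0.047 (SE), with an interval of 0.081 to 0.29 (adjusted p = 0.0483). Ikzf3 is the nearest of the called factors to the threshold, and after centring its difference was 0.086 (adjusted p = 0.412). Ikzf1 signal was 12.25, 12.25 and 12.28 in the controls, against 12.29, 12.26 and 12.24 in those labelled Cre-ERT2. The ranges overlapped, with a log2 fold change of 0.0021 ± 0.042 and an interval of -0.094 to 0.098 (adjusted p = 0.976); after centring it was -0.10. The per-array difference Ikzf3 minus Ikzf1 was -0.044, 0.053 and -0.057 in the controls, against 0.14, 0.20 and 0.17 in those labelled Cre-ERT2. The groups did not overlap and differed by 0.19 (exact permutation test, two-sided, p = 0.1, the smallest possible). Of the other family members, Ikzf2 (Helios, better known from T cells) had a log2 difference of -0.0040 (adjusted p = 0.977), and Ikzf4 and Ikzf5 had 0.10 and -0.12 (adjusted p = 0.269 and 0.184).

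Of the repressors, Bach2 rose and Bcl6 did not pass. Bach2 signal was 11.92, 11.96 and 12.04 in ERT2 controls 1 to 3 and 12.31, 12.26 and 12.16 in arrays 1 to 3 labelled Cre-ERT2. No value of one group reached the other, and array 3 of the Cre-ERT2 label was the lowest of its group and nearest to the controls. The log2 fold change was 0.27 ± 0.055 (SE), with an interval of 0.14 to 0.39 (adjusted p = 0.0321), and 0.31 without that array. After centring it was 0.16 (adjusted p = 0.0863). The related gene Bach1, whose product represses antioxidant genes, had a log2 difference of -0.0037 (adjusted p = 0.963), which was 0.028 after loess. The small MAF genes Maff, Mafg and Mafk, which encode dimer partners of BACH proteins, had 0.0085, 0.017 and -0.056. None of these 3 passed (unadjusted p under 0.05 in 0 of them in either direction by limma), and Nfe2l2, which encodes the activator NRF2 that uses the same partners, had 0.037 (adjusted p = 0.590).

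Bcl6 is the dim member of the set. Its signal was 8.03, 8.01 and 8.02 in the controls, against 8.12, 8.17 and 8.07 in those labelled Cre-ERT2. All 3 of the latter were above the controls, yet the log2 fold change of 0.10 ± 0.046 did not pass (adjusted p = 0.162). It was 0.020 below the median of genes of like signal, which was 0.12, and it was 0.0022 after loess and -0.0072 after quantile normalization. The Bcl6 difference was thus close to the median of equally dim genes. The per-array difference Bach2 minus Bcl6 was 3.89, 3.95 and 4.02 in the controls, against 4.18, 4.08 and 4.09 in those labelled Cre-ERT2. These values compare changes and not levels, since the 2 probe sets differ in brightness. Their group means differed by 0.17 without overlap (exact permutation test, two-sided, p = 0.1), and by 0.29 after loess. Of 4 genes tested among BCL6, its relatives and its corepressors (Bcl6, Bcl6b, Bcor and Zbtb16), 0 passed, and 0 had an unadjusted p under 0.05 by limma. For the 3 pairs of per-array differences the p adjusted over the pairs was also 0.1 (exact permutation test), and the pairs were chosen with earlier results of these data known.

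Irf4 signal was 11.47, 11.36 and 11.42 in ERT2 controls 1 to 3 and 11.56, 11.45 and 11.59 in arrays 1 to 3 labelled Cre-ERT2. The groups overlapped by a small margin, because array 2 of the Cre-ERT2 label lay just below control 1. The log2 fold change was 0.12 ± 0.055 (SE) with an interval of -0.0054 to 0.25 (adjusted p = 0.162), and after centring it was 0.018. Irf8, which acts with IRF4 in pre-B cells, had 0.14 ± 0.048 (adjusted p = 0.0970). Their ETS partner genes Spi1 (PU.1) and Spib had -0.055 (adjusted p = 0.490) and -0.037 (adjusted p = 0.628). Of the 5 genes in this group 0 passed, with 1 higher and 0 lower at an unadjusted p under 0.05 by limma.

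**Figure D3:**
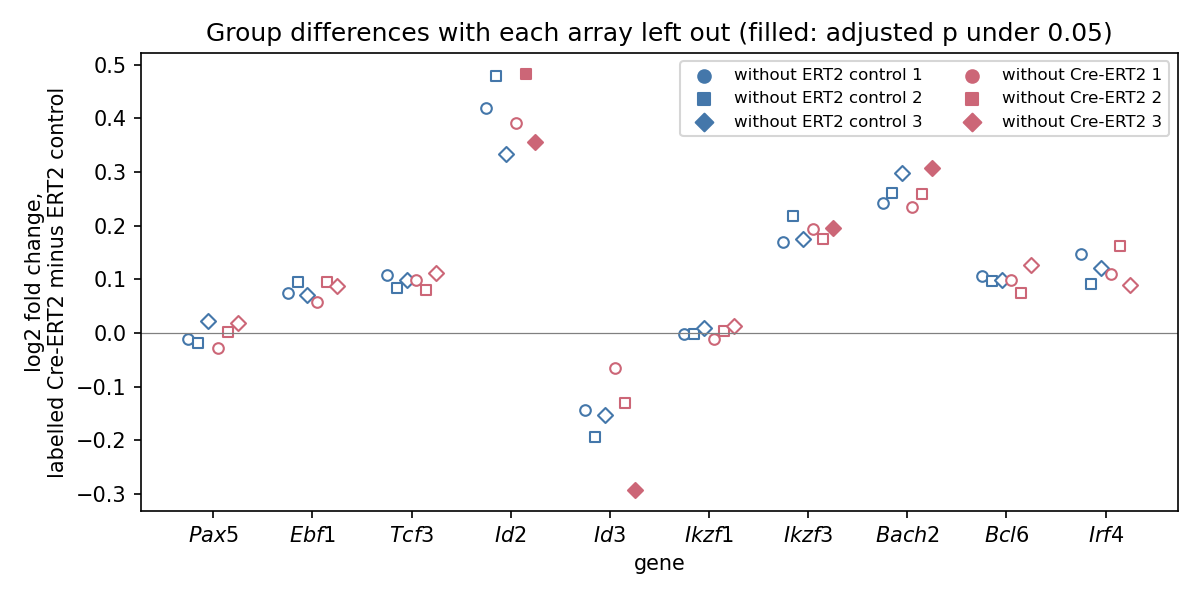
Log2 fold change of each factor when 1 array is left out of the fit. Colour gives the group and marker shape the number of the array left out, and filled points have an adjusted p under 0.05. Id3 lies at -0.29 and is filled without the array labelled Cre-ERT2 3, and between -0.19 and -0.066 without any other array.

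Leaving out single arrays changed the calls of Id2, Bach2 and Ikzf3 but not their directions. Id2 kept a log2 fold change of 0.33 to 0.48, Bach2 of 0.23 to 0.31 and Ikzf3 of 0.17 to 0.22 when each array was left out in turn. Their calls held in 2, 1 and 1 of these 6 fits. Id2 passed without the array labelled Cre-ERT2 2 or 3, and Bach2 and Ikzf3 passed without array 3 of that label. With any ERT2 control left out, or the array labelled Cre-ERT2 1, 0 of the 10 factors passed, although 3 had an unadjusted p under 0.05 by limma in each of these 4 fits. Of all genes, 0.776% to 2.32% were called in these fits. Over all 17 alternatives to the fit described, Id2 was called in 9, Bach2 in 7 and Ikzf3 in 7. The share of all genes called ran from 0.0602% to 26.7% among these alternatives. Each of these factors was higher in all 17, though several alternatives leave the log2 fold change as it was.

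A list of 22 other B lineage factors was tested, which holds Tcf4, Tcf12, Irf8, Spi1 and Spib from above. Of the 22, 0 were called in either direction, against 7.62% of all genes. At an unadjusted p under 0.05 by limma 8 were higher and 2 lower, with no share of all genes to set beside them. Their median log2 fold change was 0.049. Nearest to the threshold were Runx1, a partner of EBF1 and E2A in early B cells, at 0.19 ± 0.049 (adjusted p = 0.0512), and Pou2f2, which encodes OCT2, at -0.19 ± 0.049 (adjusted p = 0.0511); both were chosen after their values were seen. After loess both were called, Runx1 as higher (0.21, adjusted p = 0.0372) and Pou2f2 as lower (-0.19, adjusted p = 0.0317). Without the array labelled Cre-ERT2 3, 1 of the 22 was higher (Runx1) and 2 were lower (Pou2f2 and Mef2c). In that fit 20.3% of all genes were called.

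Among genes known to respond to these factors, a few single genes were called. In the main fit 7.62% of all genes were called, 3.50% as higher and 4.13% as lower, and list counts below stand beside these shares. Unadjusted counts have no such share beside them. The calls are thus given gene by gene and not as a response of a list. Of 13 tested genes activated by PAX5, 0 were higher, 1 was lower and 12 did not pass (4 higher and 1 lower at an unadjusted p under 0.05 by limma), with a median log2 fold change of 0.017. The one that fell was Bcar3, an adaptor gene, by 0.24 ± 0.049 (SE) on the log2 scale (adjusted p = 0.0304). Of 10 tested genes repressed by PAX5, 1 was higher, 0 lower and 9 did not pass (5 higher and 0 lower at an unadjusted p under 0.05), with a median of 0.14. Notch1, the receptor gene of T lineage choice, had signals of 11.65, 11.66 and 11.87 in the controls, against 12.22, 12.20 and 12.18 in those labelled Cre-ERT2. Its groups were well apart, and it rose by 0.48 ± 0.064 (adjusted p = 0.00768), 1.39-fold. Of the 14 genes on this list, 4 were too dim to be tested (Csf1r, Cd28, Jchain and Ccr2).

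Of 13 tested genes activated by EBF1 and E2A, 1 was higher, 1 lower and 11 did not pass (5 higher and 1 lower at an unadjusted p under 0.05 by limma), with a median log2 fold change of 0.0086. Dntt, which encodes terminal transferase, had signals of 11.53, 11.41 and 11.54 in the controls, against 11.81, 11.78 and 11.88 in those labelled Cre-ERT2, and rose by 0.33 ± 0.054 (SE, adjusted p = 0.0176). The recombinase gene Rag2 had signals of 9.32, 9.28 and 9.23 in the controls, against 8.91, 8.54 and 8.87 in those labelled Cre-ERT2. It fell by 0.50 ± 0.094 on the log2 scale (adjusted p = 0.0249), 0.707 of the control level. The surrogate light chain genes Vpreb1 and Igll1 and the receptor chain genes Cd79a and Cd79b did not pass, with log2 fold changes of -0.065, 0.0086, -0.046 and 0.0070.

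For the targets of the repressors, 2 of 8 tested genes repressed by BCL6 were higher, 0 lower and 6 did not pass (2 higher and 1 lower at an unadjusted p under 0.05 by limma). Cd80, the costimulatory ligand gene, had signals of 9.88, 10.01 and 9.78 in the controls, against 10.53, 10.38 and 10.43 in those labelled Cre-ERT2, and rose by 0.55 ± 0.068 (SE, adjusted p = 0.00577), 1.47-fold. Cd69, an activation marker gene, rose by 0.22 ± 0.047 (adjusted p = 0.0344). Of 3 tested genes repressed by BACH2, 1 was higher, Hmox1, which encodes haem oxygenase 1 (0.27 ± 0.045, adjusted p = 0.0172), 0 were lower and 2 did not pass (1 higher and 0 lower at an unadjusted p under 0.05 by limma). Prdm1, the BACH2 target gene that encodes BLIMP1, was too dim to be tested, at a mean of 7.30 in the controls and 7.37 under the Cre-ERT2 label. In the plasma cell programme 1 of 6 tested genes was higher, the elongation factor gene Ell2 (0.36 ± 0.046, adjusted p = 0.00650), 0 were lower and 5 did not pass (3 higher and 0 lower at an unadjusted p under 0.05 by limma). Factors of other blood lineages held 1 higher among 13 tested, the myeloid gene Cebpa (0.27 ± 0.050, adjusted p = 0.0237), and 0 lower (2 higher and 0 lower at an unadjusted p under 0.05 by limma). Cebpa lies in brightness group 3, whose median was 0.12, and its difference after centring was 0.17 (adjusted p = 0.0793). Cd69 and Hmox1 also lost their calls after centring, at 0.12 and 0.17 (adjusted p = 0.230 and 0.0857). When each array was left out in turn, Cd80 was called in all 6 fits, Ell2 in 5, Notch1 in 4, Dntt in 3, Rag2, Hmox1 and Cebpa in 2 each, and Bcar3 and Cd69 in 1 each. After loess these 9 genes kept their calls, and Blk, a kinase gene on both lists of activated genes (0.18, adjusted p = 0.0401), and Xbp1, a plasma cell factor gene also on the PAX5-repressed list (0.17, adjusted p = 0.0377), were called as well. The counts of higher genes after loess were thus 1 for the PAX5-activated, 2 for the PAX5-repressed, 2 for the EBF1 and E2A and 2 for the plasma cell list. Of all genes, 3.14% were higher after loess.

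**Figure D4:**
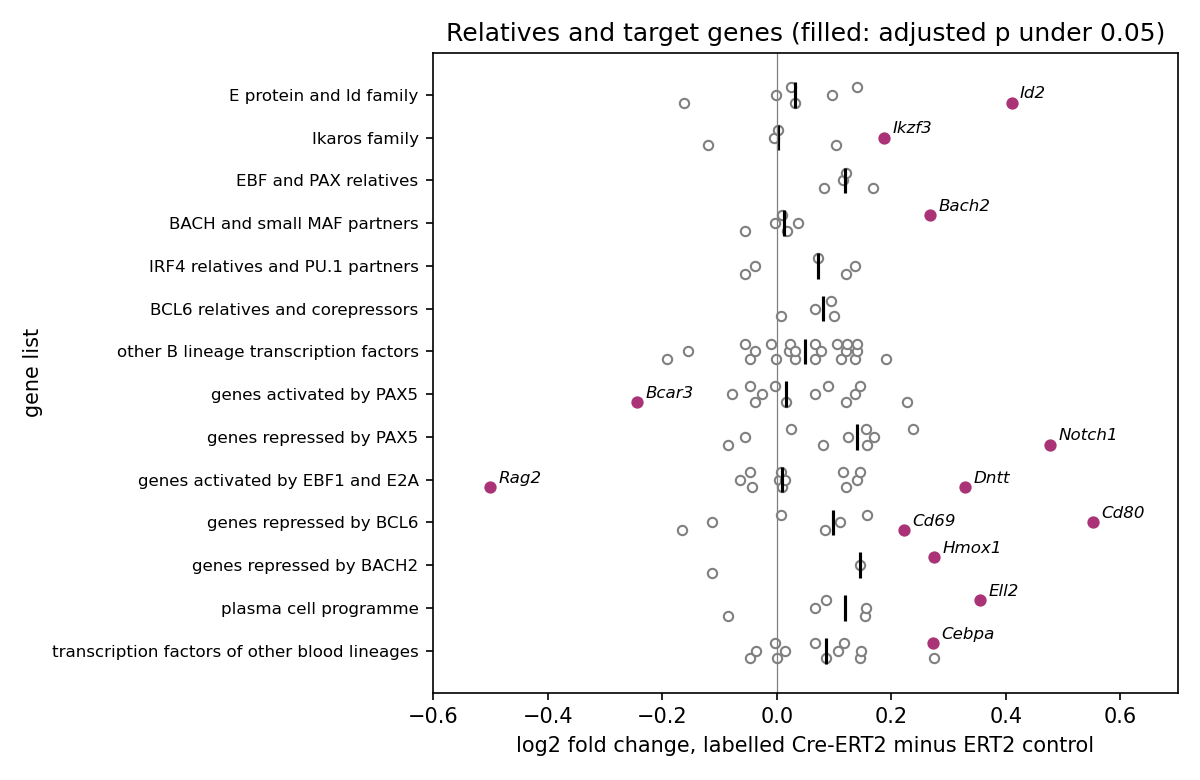
Log2 fold change of each tested gene in 14 lists of relatives and target genes of the factors, arrays labelled Cre-ERT2 minus ERT2 controls, with 1 point per gene and the list median as a vertical line. Filled points have an adjusted p under 0.05 and are named. Most points lie between -0.2 and 0.2, and the named target genes run from -0.50 (Rag2) to 0.55 (Cd80).

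Markers bear on the cells in the samples. Of 12 pre-B markers 11 were analysed here, all 11 above the filter on dim genes, and their mean log2 signal per array was 12.51 to 12.55 in the controls, against 12.47 to 12.55 in those labelled Cre-ERT2. Dntt was higher and Rag2 lower, as above. Since Id2 is also a gene of natural killer and myeloid cells, their markers were read beside it. Of 10 T and NK cell markers 4 were bright enough to be tested and 0 were called (3 higher at an unadjusted p under 0.05 by limma). Their mean per array was 7.0 to 7.04 in the controls, against 7.05 to 7.18 in those labelled Cre-ERT2, with Ncr1, Klrb1c and Cd3g below the filter. Of 10 myeloid markers 4 were tested and 1 was higher, the lysozyme gene Lyz2 (0.79 ± 0.099, SE), with means of 7.37 to 7.47 and 7.53 to 7.63 and with Itgam, Cd14 and Adgre1 below the filter. Lyz2 signal was 9.25, 9.38 and 9.10 in ERT2 controls 1 to 3 and 10.05, 9.85 and 10.21 in arrays 1 to 3 labelled Cre-ERT2, which puts the 6 arrays in the same order as for Id2. Lyz2 was picked by its call, and only 2 of the 4 tested myeloid markers had a positive log2 fold change. Of 7 stromal markers 1 was higher, Sparc (0.24), and 0 lower, with means of 8.71 to 8.77 and 8.84 to 8.97. Of mature B cell markers 2 of 7 were tested and both were lower, Cd22 (-0.51) and Cxcr5 (-0.29). Dendritic cell and erythroid or megakaryocyte lists had 0 of 4 and 0 of 2 tested markers called, and limma gave an unadjusted p under 0.05 for 0 and 1 of them. Dim genes as a whole were shifted upward, as given above, and after loess the median log2 fold change went from 0.098 to -0.011 for the tested myeloid markers, from 0.15 to 0.037 for T and NK markers and from 0.16 to 0.11 for stromal markers. After loess Lyz2 stayed called (0.80, adjusted p = 0.00308), Sparc did not pass (0.16, adjusted p = 0.0541) and the stromal list's endothelial gene Pecam1 did (0.19, adjusted p = 0.0257). The part of other cells in the rise of Id2 was not tested. In bulk RNA, fewer cells of a type and less RNA per cell cannot be told apart.

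By Pearson correlation of log2 signal over the 6 arrays, the tested genes most like Id2 were Klrb1f (0.991), Cstb (0.990) and Irf9 (0.989). Those most like Bach2 were Chst3 (0.998), Smpd5 (0.996) and Ssh2 (0.995), and those most like Ikzf3 were Qrich2, Arhgef5 and Mex3c (0.993, 0.993 and 0.992). The 6 points share the split into 2 groups and the array-wide shifts, and the genes were picked as the closest of 14953, so these values only describe likeness.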

How the data were processed

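RNA of 6 samples, 3 per group, was measured on Affymetrix arrays (mouse gene-level probe sets). The authors deposited log2 values for 35556 probe sets, and per the submitters' processing notes RMA and Partek 6.5 were used, with no role, order or settings given. The sources used here give no genome build. Values (2.88 to 14.94, 0 missing) were used as deposited.

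Of the probe sets, 21789 had 1 gene symbol in the platform annotation, 1621 several and 12146 none there. Entrez identifiers of 21698 were found in the RefSeq table (0 symbols updated). The probe set of highest mean stood for each of 19938 genes, 999 of which had more than 1. The 4985 genes below the 25th percentile of mean signal (7.35) were left out, leaving 14953. The test was that of limma 3.58.1, run in R 4.3.3 (lmFit, eBayes, 4.31 prior degrees of freedom, no covariate), two-sided, with Benjamini-Hochberg adjustment over all 14953 genes and a threshold of 0.05. Per-array differences were tested with exact permutation (scipy 1.17.1). When tested on simulated data for this comparison (14953 genes), 19% of 100 genes shifted by 0.25 log2 units were found and 88% of 100 shifted by 0.5, beside 10 false calls.

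The factors, the 22 gene lists (166 genes, 152 on the array under their own symbol and 126 tested; others not analysed here) and the alternatives were chosen with earlier results of these data known, and the motifs after the data were seen. Named were the 10 factors, Inpp5d, 7 paralogues, up to 3 called genes per list with the smallest p, and the 3 genes most correlated with each called factor. Other genes named, markers among them, give a list's members. Same-numbered arrays did not deviate together (r = 0.0693, -0.174 and -0.398 for numbers 1 to 3). With 3 arrays per group these values cannot show whether the numbers pair samples, and the samples were treated as unpaired. Alternatives were 2 other filters, the mean of probe sets, 3 scalings over all probe sets, 2 other limma settings, the replicate block, each array left out, a threshold of 0.01 and a 2-fold minimum. Counts for the lists without the array labelled Cre-ERT2 3, and medians of genes of like signal, were added after seeing the data. Figures were drawn with matplotlib 3.10.9.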

Additional observations from a re-analysis of the deposited data

How the results depend on the processing

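The count of genes called was 1140, and 437 with no filter, 3020 after centring, 2147 with trend and robust estimation, 3993 with array weights, 147 with the replicate block, 143 at a threshold of 0.01, 9 with a 2-fold minimum and 116 to 3042 with an array left out. The count of the 10 factors called was 3, and 1 after centring (Id2), 0 with no filter, with the replicate block, at 0.01 or with a 2-fold minimum (3 at an unadjusted p under 0.05 by limma in each of these fits), and 0 to 4 with an array left out. It was 3 under the 6 other alternatives, where 6.65% (quantile normalization) to 26.7% (array weights) of all genes were called. That share was 14.4% with trend and robust estimation and 15.7% (1563 genes) with the filter at the 50th percentile, which left 9 factors tested. After centring 20.2% of all genes were called, and 2.19% with no filter. The share was 0.983% with the replicate block, 0.956% at 0.01 and 0.0602% with a 2-fold minimum. In the fit with the replicate block, fewer residual degrees of freedom remain. Of 169 comparisons of single factors with the main fit, 126 kept direction and side of the threshold, 28 lost a call, 1 gained one and 14 changed sign. Direction could not change under the other filters, the mean of probe sets, trend and robust estimation or the replicate block. Nor could it at a threshold of 0.01 or with a 2-fold minimum. All of these leave the log2 fold changes of the factors as they were.

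Sign changes were all of differences that did not pass in either fit. After centring, the value was -0.023 for Ebf1, -0.0053 for Tcf3, -0.0023 for Bcl6, -0.10 for Ikzf1, -0.071 for Tcf4 and -0.078 for Id1. After quantile normalization it was -0.0072 for Bcl6, 0.0072 for Pax5, -0.061 for Id1 and 0.026 for Bach1, after loess 0.011 for Pax5, -0.047 for Id1 and 0.028 for Bach1, and with array weights 0.020 for Pax5 and 0.013 for Bach1. With single arrays left out, values crossed 0 in the ranges -0.028 to 0.023 for Pax5, -0.010 to 0.013 for Ikzf1, -0.039 to 0.023 for Bach1, -0.027 to 0.066 for Id1, -0.11 to 0.052 for Ikzf2 and -0.069 to 0.0036 for Spib. The per-array differences kept their sign under all alternatives, but centring, the mean of probe sets and pairing leave them unchanged by construction. After loess they were 0.56 for Id2 minus Id3, 0.18 for Ikzf3 minus Ikzf1 and 0.29 for Bach2 minus Bcl6. With an array left out they were 0.46 to 0.67, 0.17 to 0.22 and 0.14 to 0.20, and 2 against 3 cannot give an exact p below 0.2. Pairing by replicate number kept the values 0.57, 0.19 and 0.17 and changed only the test (exact sign-flip p = 0.25, the smallest possible). Centring moves the log2 fold change of every gene by the same amount, bright or dim. It went from 0.27 to 0.16 for Bach2 and from -0.0021 to -0.10 for Pax5. The median of their brightness group, the brightest, was -0.0090 as deposited. The cause of the changes in calls with array weights and trend was not tested. Array signal has no depth. In the simulation 19% of changes of 0.25 were recovered, but only 100 genes were changed at each size. In the data 1140 genes were called, which makes the cut on unadjusted p less strict than in the simulation. Its recovery therefore does not carry over to single factors, and Ikzf3 was called at 0.19. Whether Tcf3, Ebf1, Bcl6 and Irf4 differ by less than 3 arrays per group can call was not tested. The Bcl6 difference was 0.0022 after loess.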
